A study of Mus musculus with 25 samples.

Results

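The NFAT family of transcription factors was represented by 12 of the 13527 accessible regions ("peaks") that the assay for transposase-accessible chromatin with sequencing (ATAC-seq) counted in these cells. A peak was taken as a member where its midpoint had the start of Nfatc1, Nfatc2, Nfatc3 or Nfat5 as the nearest protein-coding gene start, or lay inside one of these genes. Nfatc1 held 7 of the peaks, Nfatc2 held 2, Nfatc3 held 2 and Nfat5 held 1. All 12 had a member as the nearest gene start, and Nfatc4 was the nearest gene of no peak.

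The cells were CD8+ T cells from spleen and lymph nodes of female C57BL/6 mice, sorted with OVA:Kb tetramers for one fetus and graft specificity (TFGS). The tetramer follows the response to OVA, which the 2W-OVA.BALB/c graft donor and father express from a transgene, and the T cells themselves were endogenous and not transgenic. The 7 groups were Naive (untreated, 3 libraries), N+P C1 and N+P C5 (semi-allogeneic pregnancy only, PD1- and PD1+CD73+ cells, 3 libraries each), Sensitized (rejected allogeneic skin graft only, 4 libraries), and the S+P groups (graft, then semi-allogeneic pregnancy, 4 libraries each), of which C4 held PD1- cells, C5 PD1+CD73+ cells and C7 PD1+CD73- cells. Post-partum cells were taken within days of delivery and Sensitized cells a month or more after grafting. The labels give no gate on PD1 or CD73 for Naive and Sensitized cells, so in comparisons of a subset with these groups the gate and the pregnancy cannot be told apart. By the study's methods cells were prepared from individual mice, but the labels do not tie a library to an animal, and p-values measure the spread between these libraries.

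In T cells, antigen receptor signaling raises intracellular calcium, calcineurin then removes phosphates from NFATc1, NFATc2 and NFATc3, and these enter the nucleus and bind DNA at sites with the core GGAAA. With AP-1 (Fos and Jun proteins) they drive cytokine genes, and without it they are known for turning on genes of anergy and exhaustion such as Pdcd1 and Tox. NFAT5 is the calcineurin-independent member, best known for the response to osmotic stress. Nfatc1 is itself a target of NFAT and is transcribed from a distal and an internal promoter.

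The sequences just upstream of the transcript starts covered by the promoter peaks of Nfatc2, Nfatc3 and Nfat5 are given to show what lies beside the promoters whose accessibility is described here. Each is 300 bases of GRCm39, written 5′ to 3′ on the strand of the gene, with every GGAAA or its complement TTTCC in capitals. The Nfatc2 window is chr2:168432286-168432585 (minus strand), upstream of an internal start of the gene and in an intron of its longer transcripts. Those of Nfatc3 and Nfat5 are chr8:106785172-106785471 and chr8:108019802-108020101 (both plus strand), and the first bases of the Nfat5 window lie in an exon of the noncoding gene Gm63927.
Nfatc2: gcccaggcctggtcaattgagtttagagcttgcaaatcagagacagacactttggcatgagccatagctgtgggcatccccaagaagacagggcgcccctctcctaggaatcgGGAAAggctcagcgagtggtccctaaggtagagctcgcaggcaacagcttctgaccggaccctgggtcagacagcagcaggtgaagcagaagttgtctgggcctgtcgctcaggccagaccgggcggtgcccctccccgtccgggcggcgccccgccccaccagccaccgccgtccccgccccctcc
Nfatc3: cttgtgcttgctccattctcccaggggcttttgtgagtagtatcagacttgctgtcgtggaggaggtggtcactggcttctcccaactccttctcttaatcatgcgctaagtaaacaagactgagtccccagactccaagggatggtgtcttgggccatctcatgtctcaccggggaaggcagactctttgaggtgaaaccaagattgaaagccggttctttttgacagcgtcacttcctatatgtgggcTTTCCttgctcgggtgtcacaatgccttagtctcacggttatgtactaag
Nfat5: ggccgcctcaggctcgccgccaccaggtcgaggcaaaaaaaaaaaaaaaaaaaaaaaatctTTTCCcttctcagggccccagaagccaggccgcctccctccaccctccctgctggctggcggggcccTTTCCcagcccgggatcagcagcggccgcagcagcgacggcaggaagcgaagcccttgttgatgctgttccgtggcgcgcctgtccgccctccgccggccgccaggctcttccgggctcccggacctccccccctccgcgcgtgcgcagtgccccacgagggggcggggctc
The capitals mark 1 core in the Nfatc2 window, 1 in the Nfatc3 window and 2 in the Nfat5 window. A core on either strand lay in 65.5% of 21757 windows of this length upstream of protein-coding gene starts, so holding one is the common case. The AP-1 site TGANTCA was in none of the 3 windows, against 7.63% of those 21757.

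In the central 300 bases of the peaks, GGAAA was found on either strand in 9 of 12 members and in 59.0% of all 13527 peaks. TGANTCA was in 1 member, the internal-promoter peak of Nfatc2, and in 9.20% of all peaks. No member had a GGAAA within 15 bases of a TGANTCA, an arrangement found in 1.40% of all peaks. These are matches of letters, not sites shown to be bound.

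The 7 peaks of Nfatc1 (ENSMUSG00000033016.18, minus strand of chromosome 18 in GRCm39) were spread from upstream of the gene to near its 3′ end. Distances are given from the annotated gene start to the midpoint of the peak. Of these, 4 lay in 1 intron, the 21.2 kb peak (chr18:80734712-80735510), the 23.1 kb peak (chr18:80732894-80733557), the 26.8 kb peak (chr18:80728963-80730020) and the 28.5 kb peak (chr18:80727339-80728213). A 5.84 kb peak (chr18:80748964-80751955) covered the internal transcript start, and no peak covered the distal starts of the gene. A 103 kb peak (chr18:80651391-80656089) was a long interval of 4699 bp in an intron near the 3′ end. The last lay 25.3 kb upstream, in an intron of the neighbouring gene Atp9b, a lipid flippase (chr18:80781244-80782037).

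Nfatc2 (ENSMUSG00000027544.18, minus strand of chromosome 2) had an internal-promoter peak 10.8 kb into the gene (chr2:168432176-168433513) and a peak past its 3′ end, 129 kb from the start (chr2:168314834-168315302). Nfatc3 (ENSMUSG00000031902.12, plus strand of chromosome 8) had a promoter peak (chr8:106784733-106786994) and a peak 4.4 kb upstream in an untranslated exon of Dus2, a tRNA-modifying enzyme (chr8:106780605-106781533). Nfat5 (ENSMUSG00000003847.18, plus strand of chromosome 8) had 1 peak, at its promoter (chr8:108019713-108020561).

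**Figure D1:**
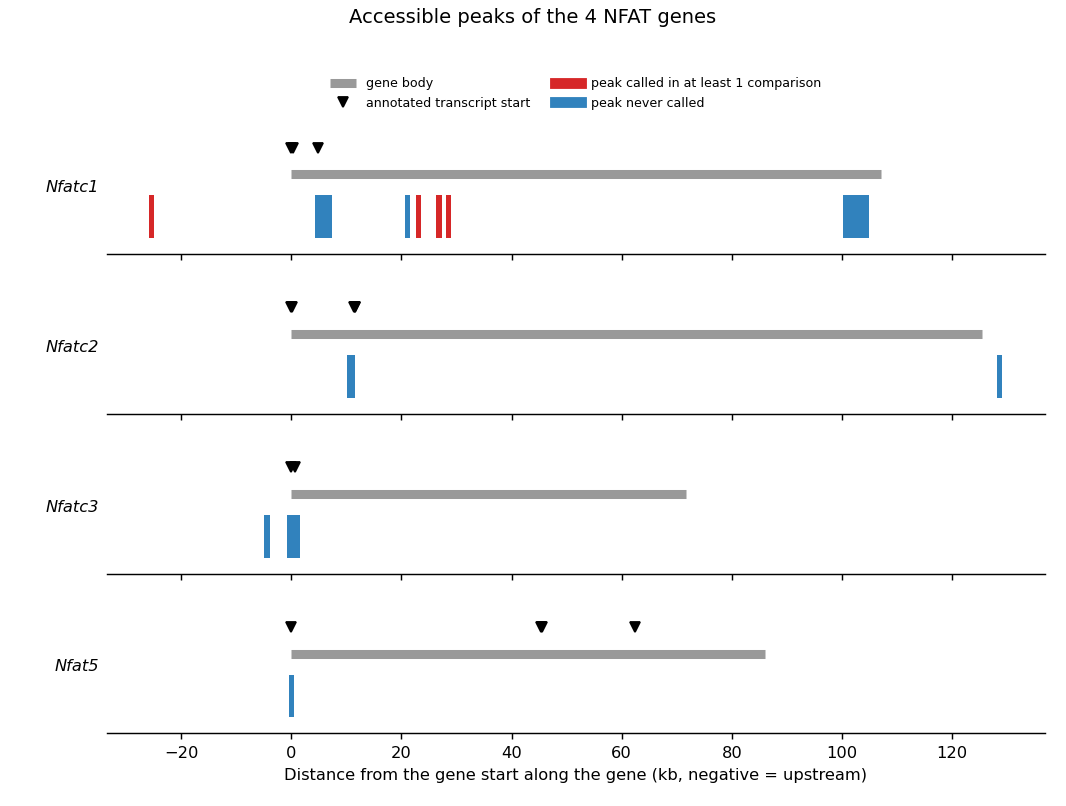
Positions of the 12 peaks along the 4 genes, in kb from the gene start on the x axis, with the gene body in grey, annotated transcript starts as triangles and peaks as blocks (drawn at least 0.9 kb wide). Red blocks were called in at least 1 comparison and all 4 of them belonged to Nfatc1.

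Total counts in peaks were 2430890 to 25419715 per library (median 8197552), and raw counts of a member in a library were 24 to 7638, of which the lowest carry the largest counting error. Values are counts divided by the library's size factor ("normalized counts"), and a change is called at an adjusted p under 0.1 with a log2 fold change beyond 0.9 in either direction. Adjusted p-values are from DESeq2 over all peaks tested. Peaks were found at 4 of 5 CD8 T cell markers (all but Cd8b1), at 0 of 3 B cell markers and at 0 of 1 NK cell markers. Of 4 myeloid markers only Itgax had a peak, at 76.3 to 154.9 in Naive and N+P libraries, 125 to 389.9 in Sensitized and 159.9 to 417 in S+P libraries. The Cd4 peaks stood at 447 to 633 in Naive and N+P libraries, 236 to 510.3 in Sensitized and 269 to 531 in S+P libraries. Antibodies to CD4, CD11c (the product of Itgax) and other lineage markers are among those the study lists for sorting and profiling. The part of other cells in the values was not tested.

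The 4 Sensitized libraries stood apart from each other in pairs at several member peaks. At the 28.5 kb peak of Nfatc1 they had 978, 908, 349 and 475 normalized counts, in the order of replicates 1 to 4. At the upstream peak they had 152, 158, 574 and 503. Replicates 1 and 2 were thus the high pair at the first and the low pair at the second, so comparisons with Sensitized are tested with all 4 libraries. The differences are also given with either pair, as a description without p-values, since the pairs were seen in these same counts. Counts of calls with a pair apply the same thresholds to refits and are likewise only a description.

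The 28.5 kb intronic peak of Nfatc1 varied more between groups than any other member except the upstream peak, with its highest group mean 8.72 times its lowest. The 3 Naive libraries had 197, 247 and 233 normalized counts. After a first pregnancy it was at 126, 124 and 102 in N+P C1 and 217, 230.3 and 192 in N+P C5. After graft and pregnancy the S+P C4 libraries had 405, 466, 497 and 418, those of S+P C5 had 859, 1341, 1075 and 819, and those of S+P C7 had 969.6, 1050.3, 862 and 707. Every S+P library was above every Naive and N+P library, and every S+P C5 and C7 library was above every S+P C4 library.

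The upstream peak had the opposite pattern. It was at 581, 704 and 655 normalized counts in Naive, 385, 547 and 599 in N+P C1 and 372, 462 and 554 in N+P C5. The counts were 408, 332, 167 and 191 in S+P C4 and lower still in the PD1+ cells, 201, 64.3, 82.4 and 70.2 for C5 and 139, 49.4, 39.8 and 56.6 for C7. All S+P C5 and C7 libraries were below all Naive and N+P libraries, and replicate 1 was the highest library in each of the 3 S+P groups. Group means fell 9.10-fold from Naive to S+P C7. In bulk libraries, fewer cells with an open site and less opening per cell cannot be told apart.

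**Figure D2:**
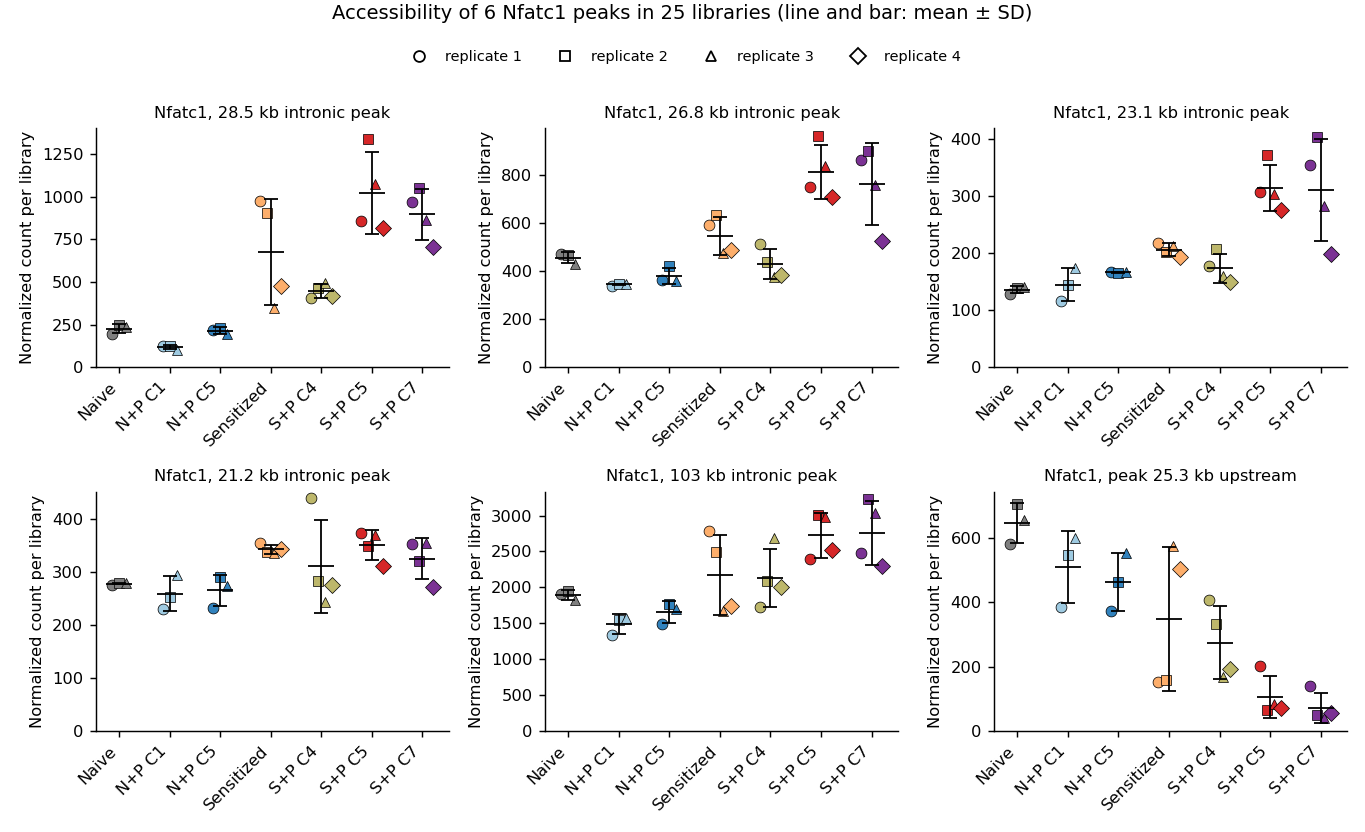
Normalized counts (y axis, from 0) of 6 Nfatc1 peaks in the 25 libraries by group (x axis); symbols give the replicate number, and the line and bar give the mean ± SD. The 28.5, 26.8 and 23.1 kb peaks are highest in S+P C5 and C7, the upstream peak is lowest there, and the Sensitized libraries fall in pairs at the 28.5 kb, 103 kb and upstream peaks.

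The effect of graft rejection alone was examined by comparing Sensitized with Naive cells. Of the 12 members, 1 was called in Sensitized vs Naive, against 8.62% of all peaks. It was the 28.5 kb peak, higher in Sensitized by 1.58 ± 0.26 on the log2 scale (SE; adjusted p = 3.13e-08), a 2.99-fold difference (226 ± 25.8, n = 3, against 677 ± 312, SD, n = 4). With replicates 3 and 4 of Sensitized alone it was 0.86 and with replicates 1 and 2 alone it was 2.05.

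An adjusted p under 0.1 at any fold was reached by 3 members, against 20.5% of all peaks. Beside the 28.5 kb peak these were the 23.1 kb peak of Nfatc1 and the internal-promoter peak of Nfatc2, both higher in Sensitized. The 23.1 kb peak had 128, 138 and 139 normalized counts in Naive and 217, 202, 212 and 193 in Sensitized, and its 4 Sensitized libraries lay close together. Its log2 difference was 0.60 ± 0.20 (adjusted p = 0.0179). The Nfatc2 internal promoter, which starts the shorter annotated transcripts, had 355, 371 and 329 in Naive and 642, 568, 404 and 412 in Sensitized. That is a log2 difference of 0.53 ± 0.15 (adjusted p = 0.00526), which was 0.21 without replicates 1 and 2.

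The upstream peak of Nfatc1 was lower in Sensitized by a log2 difference of -0.90 ± 0.46, which did not pass the test (adjusted p = 0.193). It was -2.06 with replicates 1 and 2 alone and -0.27 with replicates 3 and 4 alone. The ranges of the groups did not overlap at 7 of 12 members, against 22.7% of all peaks. At the internal promoter of Nfatc1, for example, they were 991 to 1055 in Naive and 907 to 959 in Sensitized. The median log2 difference over the 12 members was 0.14, beside -0.014 over all peaks.

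A first pregnancy was compared with the naive state in both sorted subsets. None of the 12 members was called in N+P C5 vs Naive, against 0.0262% of the 3824 peaks with an adjusted p. No member had an unadjusted p under 0.05 there, against 17.5% of all peaks, and edgeR called 0. None was called in N+P C1 vs Naive either, against 0.0205% of 4873 peaks, where 3 had an unadjusted p under 0.05, against 19% of all peaks, and edgeR called 0. Of the 12 members, only 4 kept an adjusted p in each of these comparisons after DESeq2's filter on mean count.

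Of all groups N+P C1 had the lowest 28.5 kb peak of Nfatc1, at 117 ± 13.6 against 226 ± 25.8 in Naive (n = 3 each), and the libraries did not overlap. Its log2 difference was -0.94 ± 0.29 (DESeq2, unadjusted p = 0.00109), and the mean-count filter left it without an adjusted p. With that filter off it was called (adjusted p = 0.0752), by edgeR it was not (adjusted p = 0.178), and without Naive replicate 3 it was (adjusted p = 0.0319). In N+P C5 it was at 213 ± 19.3, a log2 difference from Naive of -0.084 ± 0.28.

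Between the subsets of the same pregnancy, N+P C5 vs N+P C1, no member was called, against 0.0% of all peaks, and edgeR called 0. The 28.5 kb peak was the only member with an unadjusted p under 0.05 (against 2.28% of all peaks), at a log2 difference of 0.85 ± 0.29. The peak was higher in N+P C5 in all 3 same-numbered pairs, and the ranges did not overlap (126, 124 and 102 in N+P C1, 217, 230.3 and 192 in N+P C5). Its adjusted p by DESeq2 was 1, with the replicate number as a block it was 0.188, and with only these groups in the fit it was 0.0513, at a difference short of the fold threshold.

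Pregnancy after sensitization was compared with sensitization alone in 3 subsets. In PD1- cells (S+P C4 vs Sensitized) no member was called (against 0.858% of all peaks). An unadjusted p under 0.05 was reached by 2, against 18.7% of all peaks, and edgeR called 0. Means at the 28.5 kb peak of Nfatc1 were 446 ± 42.6 in the PD1- cells and 677 ± 312 in Sensitized (log2 difference -0.60 ± 0.24, adjusted p = 0.134). Against replicates 1 and 2 of Sensitized alone the difference was -1.08. Against replicates 3 and 4 it was 0.12.

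In PD1+CD73+ cells (S+P C5 vs Sensitized) 1 member was called, against 6.74% of all peaks. This was the upstream peak of Nfatc1, which fell from 347 ± 223 to 104 ± 64.8 (SD, n = 4 each), a log2 difference of -1.72 ± 0.43 (adjusted p = 0.00116). The size of the difference depended on which Sensitized libraries were used. Against replicates 3 and 4 the difference was -2.35, and against replicates 1 and 2 it was -0.55.

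An adjusted p under 0.1 at any fold was reached by 6 members in S+P C5 vs Sensitized, against 32.9% of all peaks, and all 6 were at Nfatc1. The other 5 were higher in S+P C5 by 0.23 to 0.60 on the log2 scale. The 26.8 kb peak had 591, 635, 474 and 488 normalized counts in Sensitized and 748, 963, 836 and 709.8 in S+P C5. These ranges did not overlap, and the log2 difference was 0.57 ± 0.15 (adjusted p = 0.00151). It was 0.76 against replicates 3 and 4 and 0.41 against replicates 1 and 2. The 23.1 kb peak had 306, 370.4, 303 and 275 in S+P C5, all above its Sensitized libraries, with a log2 difference of 0.60 ± 0.18 (adjusted p = 0.00606). It moved little with the choice of Sensitized libraries, at 0.63 against replicates 3 and 4 and 0.58 against replicates 1 and 2.

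Accessibility of the 28.5 kb peak was higher in S+P C5 than in Sensitized by 0.59 ± 0.23 (adjusted p = 0.0473), with overlapping libraries. Against Sensitized replicates 3 and 4 the log2 difference was 1.31, and against replicates 1 and 2 it was 0.12. The 103 kb peak had 2783, 2491, 1667 and 1735 in Sensitized and 2391, 3008, 2979 and 2514 in S+P C5, and its log2 difference of 0.33 ± 0.15 (adjusted p = 0.0888) likewise became 0.047 against replicates 1 and 2. The internal promoter of Nfatc1 was the fifth, at 0.23 ± 0.10 (adjusted p = 0.0805), and 0.21 against replicates 1 and 2. It lost the adjusted p threshold under 9 of 19 alternatives, as the 103 kb peak did under 9 and the 28.5 kb peak under 7. The ranges of S+P C5 and Sensitized did not overlap at 3 of 12 members, against 14.7% of all peaks. The members' median log2 difference was 0.13, beside -0.0063.

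**Figure D3:**
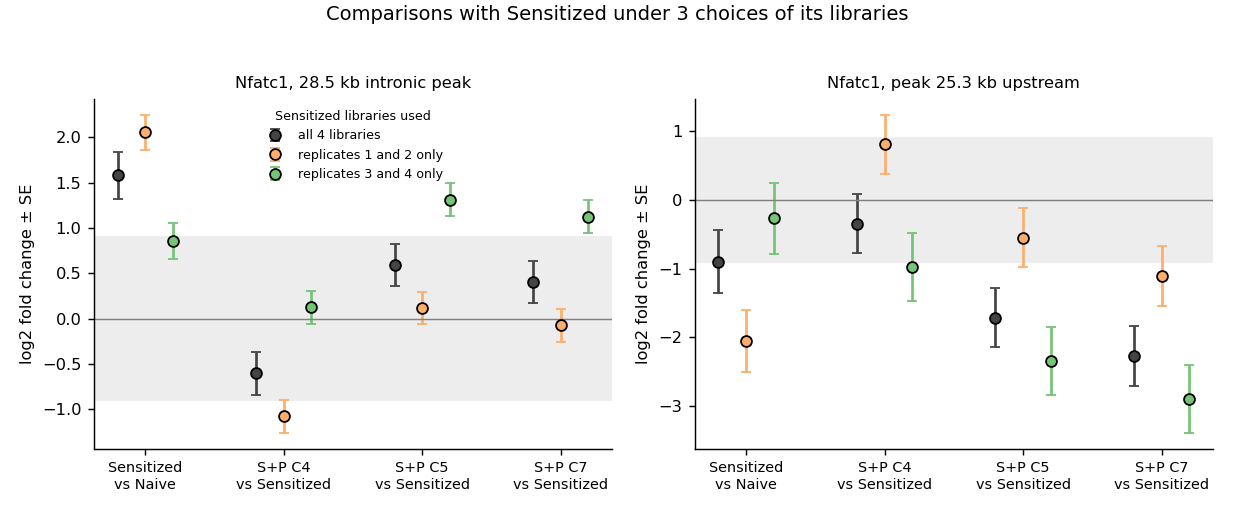
Log2 fold changes ± SE (y axis) of the 28.5 kb and upstream peaks of Nfatc1 in 4 comparisons with Sensitized (x axis), using all 4 Sensitized libraries or either pair; the grey band is the fold threshold of 0.9 in either direction. At the 28.5 kb peak S+P C5 is 1.31 above replicates 3 and 4 and 0.12 above replicates 1 and 2.

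In PD1+CD73- cells (S+P C7 vs Sensitized) the upstream peak was again the 1 member called, against 11.9% of all peaks. It fell to 71.1 ± 45.6 (n = 4), a log2 difference of -2.27 ± 0.44 (adjusted p = 2.85e-06), and was of the same sign against either pair of Sensitized libraries (-2.90 and -1.10). An adjusted p under 0.1 was reached by 7 members, against 52.9% of all peaks, 6 of them higher in S+P C7. These included the promoters of Nfatc3, at 0.29 ± 0.09 (adjusted p = 0.00559), and of Nfat5, at 0.26 ± 0.12 (adjusted p = 0.0706). The Nfatc3 promoter had 1789, 1634, 1599.6 and 1455 in Sensitized and 1744, 2139.8, 2132 and 1894 in S+P C7, which overlap. The Nfat5 promoter had 356, 281, 323 and 343 and 356, 381, 408 and 414 normalized counts, and the ranges did not overlap, by less than 1 count. It lost the adjusted p threshold under 10 of 19 alternatives. Against replicates 3 and 4 and against replicates 1 and 2 the differences were 0.37 and 0.21 at the Nfatc3 promoter, and 0.23 and 0.29 at that of Nfat5.

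The 26.8 and 23.1 kb peaks of Nfatc1 were higher in S+P C7 than in Sensitized by 0.47 ± 0.15 (adjusted p = 0.00495) and 0.58 ± 0.18 (adjusted p = 0.00423). The first of these was 0.66 against replicates 3 and 4 and 0.31 against replicates 1 and 2. Here the 28.5 kb peak did not pass the test (0.41 ± 0.23, adjusted p = 0.145), and was at 1.12 against replicates 3 and 4 and -0.074 against replicates 1 and 2. Between the PD1+ subsets themselves, S+P C7 vs S+P C5, no member was called, against 2.38% of all peaks. Without a replicate block none had an unadjusted p under 0.05, against 18.4% of all peaks, and edgeR called 0. With the replicate number as a block, the Nfatc3 promoter was higher in S+P C7 by 0.15 ± 0.056 (adjusted p = 0.0423), short of the fold threshold. The member with the largest difference was the upstream peak, at -0.55 ± 0.44. It was lower in S+P C7 in all 4 same-numbered pairs, and with the replicate number as a block the adjusted p was 0.11. Replicate 1 was the highest library of both groups. Without it in S+P C5 alone the difference was -0.012, and without it in S+P C7 alone the peak was called, at -1.11 (adjusted p = 0.099).

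The choice of pair also moved other members. At the internal promoter of Nfatc2 the log2 difference of S+P C4 was 0.12 against replicates 3 and 4 and -0.45 against replicates 1 and 2. For S+P C5 these values were 0.17 and -0.40, and for S+P C7 they were 0.31 and -0.27. At the 103 kb peak of Nfatc1 Sensitized differed from Naive by 0.48 with replicates 1 and 2 and by -0.16 with replicates 3 and 4. There S+P C7 was 0.70 from replicates 3 and 4 and 0.064 from replicates 1 and 2.

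The same sorted phenotype with and without earlier sensitization (S+P C5 vs N+P C5) gave the largest number of calls. Of the 12 members 4 were called, against 17.2% of all peaks, and all 4 were at Nfatc1. Of these, 3 were higher in S+P C5, against 10.3% of all peaks. Largest was the rise of the 28.5 kb peak, from 213 ± 19.3 (n = 3) to 1024 ± 239.6 (n = 4), a 4.79-fold difference (2.26 ± 0.26 on the log2 scale, adjusted p = 2.53e-16). The upstream peak moved the other way, from 463 ± 91 to 104 ± 64.8 (-2.13 ± 0.47, adjusted p = 2.94e-05).

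The promoter peak of Atp9b itself, the gene in whose intron the upstream peak lies, was higher in S+P C5 than in N+P C5 by 0.41 ± 0.11 (adjusted p = 0.000663), short of the fold threshold. In S+P C5 vs Sensitized it differed by 0.19 ± 0.10 (adjusted p = 0.122).

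At the 26.8 kb peak the N+P C5 libraries had 364, 419 and 359.5 normalized counts, all below the S+P C5 libraries. The log2 difference was 1.09 ± 0.16 (adjusted p = 3.98e-10). At the 23.1 kb peak they had 166, 164 and 167, again all below, with 0.91 ± 0.20 (adjusted p = 2.31e-05). This call lay at the fold threshold and was lost without S+P C5 replicate 2 (0.83) and with loess offsets (0.60). Along the intron, the differences of the 4 peaks fell in order from 28.5 to 21.2 kb, where it was 0.41 ± 0.15 (adjusted p = 0.0135).

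An adjusted p under 0.1 at any fold was reached by 8 members, against 63.8% of all peaks, and ranges did not overlap at 8, against 62.9%. Among them were both Nfatc2 peaks. The internal promoter of Nfatc2 had 395, 317 and 327 in N+P C5 and 414, 502, 445 and 485 in S+P C5 (0.41 ± 0.15, adjusted p = 0.0175). The peak past its 3′ end had 190.2, 185 and 159.9 and 254, 223, 195 and 234 (0.35 ± 0.19, adjusted p = 0.0996). This peak lost the adjusted p threshold under 10 of 16 alternatives, edgeR among them. The internal promoter of Nfatc1 differed by 0.032 ± 0.11 (adjusted p = 0.819), a difference smaller than its SE. Over the 12 members the median log2 difference was 0.38, beside 0.0046 over all peaks.

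Within sensitized and pregnant mice, PD1+CD73+ cells were compared with PD1- cells (S+P C5 vs S+P C4). Of the 12 members 3 were called, against 5.12% of all peaks, 2 of them higher in S+P C5, against 3.12%. Means at the 28.5 kb peak were 446 ± 42.6 in PD1- and 1024 ± 239.6 in PD1+CD73+ cells (1.19 ± 0.24, adjusted p = 2.67e-05). The 26.8 kb peak was at 514, 439, 376 and 384 in S+P C4, all below S+P C5 (0.94 ± 0.15, adjusted p = 7.05e-08). The upstream peak was lower in S+P C5 in all 4 same-numbered pairs (-1.37 ± 0.43, adjusted p = 0.0207), with overlapping libraries.

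Only the 28.5 kb call held without each library in turn. Without S+P C5 replicate 2 it was the 1 call left, since the 26.8 kb peak fell short of the fold threshold (0.85) and the upstream peak of the adjusted p (0.105). Without S+P C4 replicate 1 the upstream peak lost its call too (-1.13, adjusted p = 0.19). Without S+P C4 replicate 3 or 4 the 26.8 kb peak did (0.88 and 0.89). An adjusted p under 0.1 was reached by 4 members, against 13.3% of all peaks, the fourth being the 23.1 kb peak (0.86 ± 0.18). With the replicate number as a block the 103 kb peak reached it too (0.36 ± 0.07, adjusted p = 5.21e-06), short of the fold threshold. The upstream peak was then at -1.46 ± 0.24 (adjusted p = 2.41e-08). The fits without 1 library had no such block. Ranges did not overlap at 3 members, against 11.7%.

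**Figure D4:**
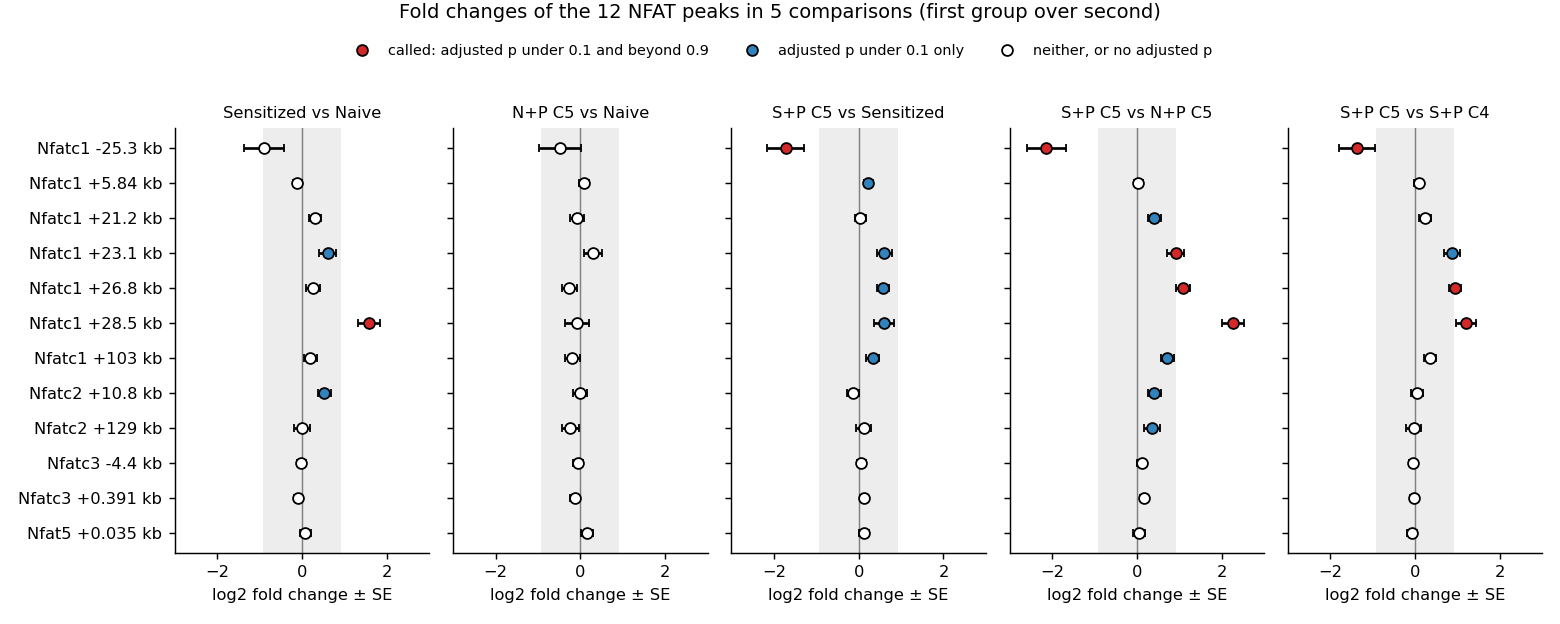
Log2 fold changes ± SE (x axis) of the 12 peaks (y axis, by gene and distance from the gene start) in 5 comparisons; the grey band is the fold threshold, red points are called and blue points have an adjusted p under 0.1 only. All red points are at Nfatc1, and none is in N+P C5 vs Naive.

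The effect of pregnancy on the PD1+CD73+ subset was then compared between sensitized and unsensitized mice in one test of the difference of differences. No member was called, against 5.97% of all peaks, and edgeR called 0. An unadjusted p under 0.05 was reached by 2 members, against 36.7% of all peaks, and an adjusted p under 0.1 at any fold by the same number, against 31.2% of all peaks. The 26.8 kb peak differed by 0.83 ± 0.23 (adjusted p = 0.00825), being higher in S+P C5 than in Sensitized by 0.57 and not higher in N+P C5 than in Naive (-0.26). The 103 kb peak differed by 0.52 ± 0.23 (adjusted p = 0.0823), and by 0.24 with Sensitized replicates 1 and 2 alone. For the 28.5 kb and upstream peaks the difference of differences was 0.68 ± 0.36 (adjusted p = 0.157) and -1.24 ± 0.66 (adjusted p = 0.152).

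With Sensitized replicates 3 and 4 alone, the difference of differences was 1.40 at the 28.5 kb peak, 1.02 at the 26.8 kb peak and -1.86 at the upstream peak. With replicates 1 and 2 alone the same values were 0.20, 0.66 and -0.064. The share of all peaks called in these fits was 17.5% and 2.36%.

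The peaks of Nfatc3 and Nfat5, the 21.2 kb peak of Nfatc1 and the peak past the 3′ end of Nfatc2 had group means at most 1.43-fold apart, beside a median of 1.46 over all peaks. With all libraries used, the peak in Dus2, upstream of Nfatc3, stayed between 665 and 959 normalized counts and reached an adjusted p under 0.1 in none of the 11 comparisons. The 21.2 kb peak of Nfatc1 ranged from 229 to 439 and the peak past the 3′ end of Nfatc2 from 155 to 303. With all libraries each passed in a single comparison, that of S+P C5 with N+P C5. With all libraries in 1 fit and no replicate block, the promoters of Nfatc3 (1438 to 2139.8) and Nfat5 (260.4 to 415) likewise passed in a single one. It was that of S+P C7 with Sensitized.

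The deposited peak lists, one per group and pooled over its libraries, were read beside the counts. The 103 kb peak of Nfatc1 and both Nfatc3 peaks overlapped a listed peak in all 7 groups. The 28.5 kb peak was listed in 2 groups, Sensitized and S+P C7, and not in S+P C5, where its mean count was the highest. The 23.1 kb peak was listed in 2 groups as well, the PD1+ subsets of S+P. The upstream peak was in 4 lists (Naive, N+P C1, N+P C5 and Sensitized) and in none of S+P. The internal promoter of Nfatc1 was in 3 lists, Naive, N+P C1 and N+P C5, although its mean count in S+P C5 (1102) was above that in Naive (1014). Absence from a list was thus not the same as a lower count. The lists held 3788 peaks (S+P C4) to 11384 (S+P C5), and 3 to 9 members.

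Summed over the peaks of a gene and per kb of peak, Nfatc3 was the most accessible of the 4 genes in every group, and Nfatc2 the least in 6 of 7. For Nfatc1 the order of group means was N+P C1 (331 ± 34.1 normalized counts per kb), N+P C5 (355 ± 26.6), Naive (391 ± 9.88), S+P C4 (405 ± 28.2), Sensitized (440.0 ± 62.7), S+P C7 (526 ± 75.1) and S+P C5 (541 ± 50.2). Of these neighbours only N+P C5 and Naive had libraries that did not overlap.

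For Nfatc2 the order was N+P C1 (270.4 ± 12.5), N+P C5 (290.4 ± 29.4), Naive (311 ± 24.5), S+P C4 (377 ± 20.1), S+P C5 (381 ± 22.7), Sensitized (396 ± 84.4) and S+P C7 (420.4 ± 63). Only Naive and S+P C4 had libraries that did not overlap. For Nfatc3 the means ran from 714 ± 60.9 in N+P C1 to 905 ± 67.9 in S+P C7, and for Nfat5 from 362 ± 59.1 in Naive to 459 ± 31.3 in S+P C7. No neighbours in either order differed beyond the spread of their libraries. The highest group mean was 1.64 times the lowest for Nfatc1, 1.55 for Nfatc2, and 1.27 for Nfatc3 and for Nfat5.

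**Figure D5:**
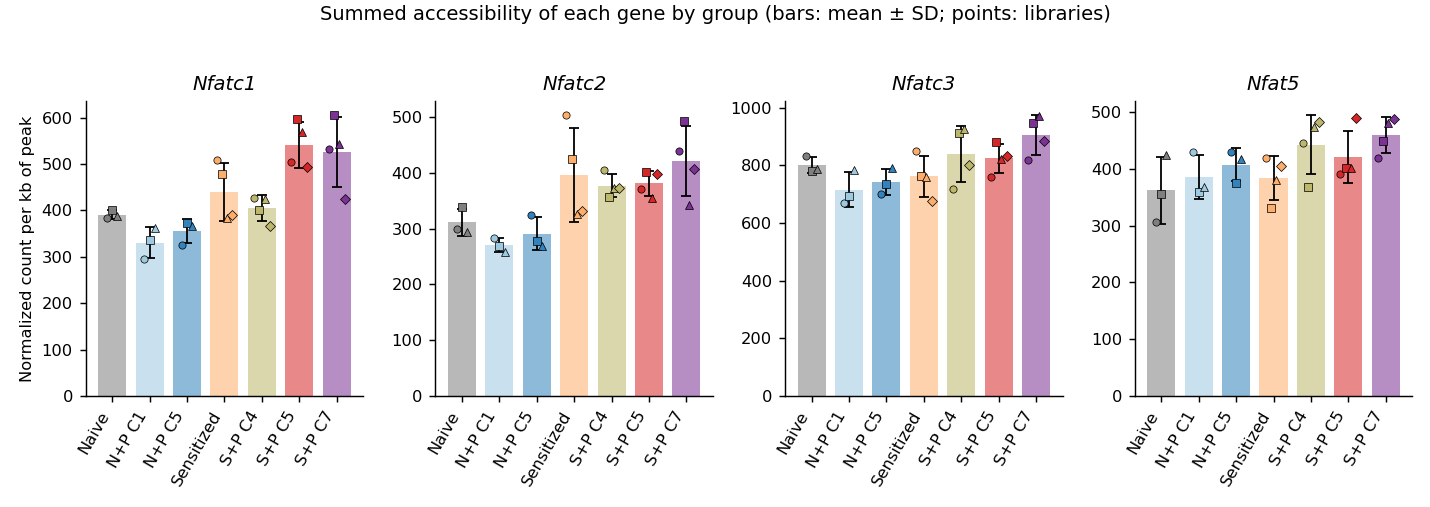
Normalized counts per kb of peak (y axis, from 0) summed over the peaks of each gene, by group (x axis); bars are means ± SD and points are libraries. Nfatc1 is highest in S+P C5 and C7, while Nfatc3 and Nfat5 differ by at most 1.27-fold between groups.

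Among all 13527 peaks, the ratio of the highest to the lowest group mean of the 28.5 kb peak was at percentile 95.1 and that of the upstream peak at 95.4. That of the Nfatc3 promoter was at 24.4, that of the Nfat5 promoter at 23.9 and that of the internal promoter of Nfatc1 at 13.8. Peaks of other genes were ranked by likeness to the 28.5 kb peak (Pearson r over the 7 group means of log2 normalized counts). The nearest gene starts of the most alike were those of Cd69 (r = 0.998), Ccdc90b (r = 0.996, 426653 bp away) and Supt3 (r = 0.996, 177968 bp away). These correlations are over 7 points that share libraries and are given as a description. Cd69 encodes an early activation marker of lymphocytes, and its peak lay between genes, 35545 bp from the Cd69 start (chr6:129216314-129217394).

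The genes that act before and after NFAT were counted from lists, each peak going to its nearest protein-coding start, which can be far away. Among 23 peaks of 10 calcium entry genes (store sensors, Orai channels, IP3 receptors and others), 2 were called in Sensitized vs Naive and 2 in S+P C5 vs Sensitized, or 8.70% each, against 8.62% and 6.74% of all peaks. Higher in Sensitized were a peak 107261 bp from Stim2, a sensor of store calcium (log2 difference 3.21 ± 0.41, SE, as for all values in parentheses that follow), and one in an intron of Itpr1, a calcium release channel (3.76 ± 0.49). Lower in S+P C5 were intronic peaks of Itpr2 (-1.47 ± 0.28), a channel of the same kind, and Orai2 (-0.95 ± 0.20), a calcium entry channel. Against Sensitized replicates 3 and 4 alone S+P C5 had 4 calls, 2 in each direction, and against replicates 1 and 2 it had 1. The share of all peaks called also moved with the pair, to 13.2% against replicates 3 and 4 and 3.25% against replicates 1 and 2, and in Sensitized vs Naive to 4.18% with replicates 3 and 4 and 15.2% with replicates 1 and 2. List counts with a pair are read beside these shares. The list's median log2 difference was 0.022 and 0.070, beside -0.014 and -0.0063 over all peaks.

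Of 9 peaks of calcineurin and its immunophilin partners, 1 was called in Sensitized vs Naive, 271660 bp from the catalytic subunit gene Ppp3ca (1.36 ± 0.28), and 0 in S+P C5 vs Sensitized (DESeq2; 1 had an unadjusted p under 0.05 and edgeR called 0), against 8.62% and 6.74% of all peaks. With Sensitized replicates 3 and 4 alone these counts were 0 and 1. Of the 7 calcineurin inhibitor genes 3 had a peak, and of these 3 peaks 1 was called in Sensitized vs Naive, in an intron of the scaffold gene Akap5 (3.19 ± 0.49). None of the 3 was called in S+P C5 vs Sensitized (DESeq2; 0 had an unadjusted p under 0.05 and edgeR called 0), and 1 was with replicates 3 and 4 alone. Of 12 peaks of kinases that act on NFAT, 1 was called lower in Sensitized than in Naive and 2 lower in S+P C5 than in Sensitized, against the same shares of all peaks. With replicates 3 and 4 alone the counts were 0 and 2 (against 4.18% and 13.2% of all peaks), and with replicates 1 and 2 alone 4 and 0 (against 15.2% and 3.25%). The peaks called with all libraries were between genes, 104104 and 157111 bp from the start of Dyrk2, a kinase that phosphorylates NFAT.

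Of 33 peaks of partner factors, 4 were called in Sensitized vs Naive, or 12.1% against 8.62% of all peaks, and all were higher in Sensitized. Their nearest starts were those of Egr2 (3.25 ± 0.43, 51913 bp away), Maf (3.05 ± 0.49, 237283 bp away), Fosl2 (1.10 ± 0.28) and Junb (0.94 ± 0.29). The last 2 genes encode AP-1 proteins. The peak of Maf was higher again in S+P C5 than in Sensitized (1.53 ± 0.40), the 1 partner peak called there, or 3.03% against 6.74% of all peaks. Without Sensitized replicates 1 and 2 the list had 2 calls against Naive and 4 against S+P C5, and without replicates 3 and 4 it had 5 and 2.

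The list of known NFAT target genes in T cells had 59 peaks at 11 genes, and 16 were called in Sensitized vs Naive, all higher in Sensitized. That is 27.1%, against 8.62% of all peaks, and the list's median was 0.26 beside -0.014. The list was chosen with earlier results of these data known, so its shares are a description. The called peaks lay at Tox and Pdcd1, known for exhaustion, at the cytokine gene Ifng, at the death ligand gene Fasl and at the inhibitory receptor gene Havcr2. A peak in an intron of Tox was at 193 ± 120.04 in Sensitized and 19.0 ± 3.4 in Naive (3.33 ± 0.41). One 3016 bp from the start of Pdcd1 was at 381 ± 219.7 and 70.1 ± 8.98 (2.44 ± 0.35). As at the 28.5 kb peak of Nfatc1, the SD within Sensitized was large beside the mean, and 10 were called with replicates 3 and 4 alone, against 4.18% of all peaks. With replicates 1 and 2 alone 20 were, against 15.2%, of which 3 were lower in Sensitized.

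In S+P C5 vs Sensitized 14 target peaks were called, 13 of them higher in S+P C5, or 23.7%, against 6.74% of all peaks, with a median of 0.21 beside -0.0063. This share too is a description, since the list was chosen with earlier results known. Peaks of Pdcd1 were among those called, and S+P C5 was sorted on PD1, the product of that gene. A peak in an intron of Tigit, an inhibitory receptor gene, was at 352 ± 31.4 in S+P C5 and 65.9 ± 10.6 in Sensitized (2.41 ± 0.19), with little spread in either. The 1 lower peak was 192700 bp from Ifng (-1.13 ± 0.26). Against Sensitized replicates 3 and 4 the count was 23, beside 13.2% of all peaks, and against replicates 1 and 2 it was 6, beside 3.25%. Both comparisons share the Sensitized libraries. In N+P C5 vs Naive DESeq2 called 0 of the 144 peaks of all lists, against 0.0262% of the 3824 peaks with an adjusted p, and edgeR called 0. A list peak that the mean-count filter left without an adjusted p could not be called by DESeq2, while edgeR adjusted over all peaks. An unadjusted p under 0.05 was reached by 21 of the 144, or 14.6%, against 17.5% of all peaks. The partner and the target list each had 1 call there under 1 of 15 alternatives. Of 5 peaks of NFAT5 targets, at 3 of 6 genes, DESeq2 and edgeR called 0 in each of these 3 comparisons, where 1, 1 and 4 had an unadjusted p under 0.05. In Sensitized vs Naive that p was reached by 26.6% of all peaks, and in S+P C5 vs Sensitized by 37.7%.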

How the data were processed

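ATAC-seq libraries of sorted TFGS were sequenced in 25 libraries of 7 groups. Per the study's methods and the submitters' processing notes, the authors trimmed reads (cutadapt 3.4), aligned them to GRCm39 (Bowtie2 2.2.9), removed non-unique reads and duplicates (Picard 2.21.8), called peaks per library (Genrich 0.6.1 in ATAC-seq mode) and merged the group lists (bedtools 2.27.1), and the deposited table holds their raw count of reads per merged peak and library. The deposited group lists hold a ChIP-R score per recurring peak, of which only positions were used here. Since counted regions came from these lists, a site open in few libraries may be missing.

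Peaks were assigned by midpoint to GENCODE vM39 starts in GRCm39, a promoter being within 1000 bp. All 13527 peaks and 25 libraries entered 1 DESeq2 1.42.0 fit (R 4.3.3) with median-of-ratios size factors, no term beside group, a local dispersion trend in place of the parametric one, Wald tests and Benjamini-Hochberg adjustment over all peaks. The thresholds are those of the study's methods. Alternatives used edgeR 4.0.16 (TMM, quasi-likelihood), total counts, loess offsets (limma 3.58.1), other thresholds, a replicate block, each library left out and, chosen after seeing the data, each pair of Sensitized libraries left out. The fit was tested on simulated data. Same-numbered libraries deviated together in N+P C1 and C5 (r = 0.108 to 0.400), S+P C4 and C5 (0.103 to 0.572) and S+P C5 and C7 (0.522 to 0.771), and the numbers were taken to pair these subsets, although the labels do not say that equal numbers are the same animals, differently numbered S+P C4 and C5 libraries reached 0.440, and S+P C4 and C7, which were not compared, went down to 0.0639. Every member was described, and the members and gene lists were chosen with earlier results of these data known.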

Additional observations from a re-analysis of the deposited data

Results flagged for a closer look

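In 4 of the 48 groups of 4 libraries tested, 1 library lay far from the others by Dixon's test, which chance gives in about 1 of 20. At the upstream peak of Nfatc1, replicate 1 had 201 normalized counts in S+P C5 (the others had 64.3 to 82.4) and 139 in S+P C7 (the others had 39.8 to 56.6). At the internal promoter of Nfatc1, S+P C4 replicate 1 had 1409 (the others had 934 to 941). At the Nfat5 promoter, S+P C5 replicate 4 had 415 (the others had 331 to 341).

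For 2 peaks the change from the unpregnant group to the PD1+CD73+ subset after pregnancy differed between sensitized and unsensitized mice. The threshold was an adjusted p under 0.1 at any fold, reached by 31.2% of all peaks, and no member was called. The log2 difference of the changes was 0.83 at the 26.8 kb peak of Nfatc1 (adjusted p = 0.00825, DESeq2) and 0.52 at its 103 kb peak (adjusted p = 0.0823). With Sensitized replicates 1 and 2 alone these were 0.66 and 0.24, and with replicates 3 and 4 alone 1.02 and 0.88. The value of the 103 kb peak lost the threshold under 11 of 25 alternatives.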

How the results depend on the processing

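The 30 values of single peaks past a threshold were refitted under 547 alternatives, of which 469 kept the direction and the side of the threshold, 78 kept the direction and lost the threshold, and 0 reversed. Of the 10 called values, 5 lost no call. No other scaling moved the median of all peaks by over 0.1, and none of 56 summed levels moved by an SD. The low-count filter removed no peak, and nearest start alone gave the same members. Without the fold threshold the counts of members called rose to 3 in Sensitized vs Naive (against 20.5% of all peaks) and 6 in S+P C5 vs Sensitized (32.9%). In S+P C7 vs Sensitized the count was 7 (52.9%) and for S+P C5 vs N+P C5 it was 8 (63.8%). It was 4 in S+P C5 vs S+P C4 (13.3%) and 2 in the difference of differences (31.2%). In N+P C1 vs Naive, 1 in place of 0 was called with mean-count filtering off, with total counts and with only those groups in the fit. Loess offsets gave 1 in place of 0 in the difference of differences. Loess offsets also called the 103 kb peak of S+P C5 vs N+P C5 (0.92).

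Leaving out Sensitized replicates 1 and 2 gave 0 in Sensitized vs Naive (against 4.18% of all peaks), 2 in S+P C5 vs Sensitized (13.2%), 2 in S+P C7 vs Sensitized (18.2%) and 3 in the difference of differences (17.5%). Leaving out replicates 3 and 4 gave 2 in Sensitized vs Naive (15.2%), 1 in S+P C4 vs Sensitized (2.31%) and 0 in S+P C5 vs Sensitized (3.25%). The pairs were seen in the members' own counts, so these counts are a description. The cause was not tested. With each library left out in turn, counts were 1 to 2 in Sensitized vs Naive (2 without Sensitized 3 or 4), 0 to 1 in N+P C1 vs Naive, 3 to 4 for S+P C5 vs N+P C5, 1 to 4 in S+P C5 vs S+P C4, 0 to 1 in S+P C7 vs S+P C5 and 0 to 2 in the difference of differences (above 0 without N+P C5 2, Sensitized 1 or 2, or S+P C5 1).

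With the replicate number as a block, calls among paired subsets were unchanged at 0 in N+P C5 vs N+P C1, 3 in S+P C5 vs S+P C4 and 0 in S+P C7 vs S+P C5. Elsewhere groups share only a number, and the block gave 2 in Sensitized vs Naive, adding the upstream peak (-1.43, adjusted p = 0.000114), and 1 in N+P C1 vs Naive. It moved no other count.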
